A study of Mus musculus with 3 samples.

Results

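The 10 genes described here build caveolae and carry nitric oxide signalling: Cav1 and Cav2 (caveolins), Cavin1, Cavin2 and Cavin3 (cavins), Ehd2 and Pacsin2 (proteins that shape the caveolar neck), Nos3 (endothelial nitric oxide synthase, eNOS), and Gucy1a1 and Gucy1b1 (subunits of soluble guanylate cyclase). They were chosen by name, and all 10 were found among the 17583 genes of the deposited table. The hearts came from 3 mice called EC-RiboTag, of the genotype Cdh5-CreERT2;Rpl22tm1.1Psam, and RNA on their endothelial ribosomes was isolated with an antibody to the tag and sequenced. In these animals tamoxifen activates a Cre recombinase under the endothelial Cdh5 promoter, which switches Rpl22 to a form with a hemagglutinin tag. By design, only ribosomes of recombined cells carry this tag. The 3 libraries are biological replicates of a single condition, and the labels give neither age nor sex. Coronary ligation 7 days earlier is named in the labels but no infarction in the RiboTag methods, and the letters Rz in the titles are not spelled out for these samples. Elsewhere in the study RZ stands for the remote zone of hearts 7 days after infarction, EC-RiboTag hearts included, and whether whole hearts or this zone were sequenced is not stated for these libraries. As neither input nor control RNA was analysed here, a value gives a level in the immunoprecipitate and not an enrichment, and no conditions were compared.

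Caveolae are small flask-shaped pits of the plasma membrane and are abundant in capillary endothelium of the heart. Caveolins insert into the membrane and cavins coat it from the cytosol, whereas EHD2 holds the neck of the pit at the cell surface. eNOS resides in caveolae, where binding to caveolin-1 keeps its activity low. The nitric oxide it makes from L-arginine diffuses to neighbouring cells, classically smooth muscle, and there activates soluble guanylate cyclase, an enzyme of an alpha and a beta subunit that produces cyclic GMP (cGMP).

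The deposited values are normalized counts, meaning reads per gene divided by a size factor for each library and rounded to whole numbers. Their sums were 7149102, 7158585 and 7268785 in mice 1, 2 and 3, and from the whole numbers that the rounding skips or doubles, about 7319000, 6754000 and 7566000 reads were estimated to lie behind them. The endothelial markers were present throughout, with all 10 (Pecam1, Cdh5, Kdr, Flt1, Tek, Tie1, Emcn, Esam, Egfl7 and Eng) in the highest 10% of genes per kilobase and a summed normalized count of 24986 to 26097. RNA of other cell types was present too. The 10 cardiomyocyte markers summed to 20679, 21339 and 24237, the 10 pericyte and smooth muscle markers to 1756, 2222 and 2512, the 8 fibroblast markers to 3047, 3970 and 4186, the 7 leukocyte markers listed to 588, 836 and 823, and the 7 erythroid and platelet markers to 388, 387 and 420, and no listed marker was at 0 in any mouse. Mouse 1 also stood apart in sex-linked genes. Its normalized count of Xist was 4, against 618 and 869 in mice 2 and 3, and that of Ddx3y 1080, against 3 and 1. This is the pattern of a male for mouse 1 and of females for mice 2 and 3. Any difference between the sexes is thus part of the spread between mice. In such bulk libraries, fewer cells of a type and less RNA per cell cannot be told apart.

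The genes of the caveolar coat were abundant in the immunoprecipitate and differed little between mice. Per kilobase of transcript, they lay at the 99.8th (Cav1), 99.6th (Cavin1), 97.9th (Cav2), 88.8th (Cavin3) and 88.3rd (Cavin2) percentile of genes. Cav1, which encodes the main caveolin of endothelial caveolae, had normalized counts of 2343 in mouse 1, 2482 in mouse 2 and 2329 in mouse 3, a mean of 2385 ± 84.6 (SD, n = 3 mice). It is a plus-strand gene of chromosome 6 (ENSMUSG00000007655, GRCm39, 17306334 to 17341451), and its canonical transcript has 3 exons and encodes 178 residues. Cav2 (ENSMUSG00000000058), its partner in mixed oligomers, lies upstream on the same strand from 17281184 to 17289114, with a gap of 17.2 kb between the genes. Normalized counts of Cav2 were 2098, 2090 and 1988, a mean of 2059 ± 61.3 (SD, n = 3). Mouse 3 was the lowest for both caveolins, and in neither gene did the mice spread by more than a coefficient of variation of 3.55%.

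Cavin1, which encodes the cavin required for caveolae in all tissues, is a minus-strand gene of chromosome 11 (ENSMUSG00000004044, 100847559 to 100861713). Its normalized counts were 2762, 2854 and 2634, a mean of 2750 ± 110.5 (SD, n = 3). Cavin2, a cavin that helps to curve the membrane, is a plus-strand gene of chromosome 1 (ENSMUSG00000045954, 51328285 to 51342119) and had 2351, 2269 and 2158, a mean of 2259 ± 96.9 (SD, n = 3). For Cavin3, a cavin of caveolar trafficking and signalling and a minus-strand gene of chromosome 7 (ENSMUSG00000037060, 105129290 to 105131507), the normalized counts were 855, 963 and 838, a mean of 885.3 ± 67.8 (SD, n = 3). As for the caveolins, each cavin was lowest in mouse 3, at 0.938 (Cavin1), 0.934 (Cavin2) and 0.922 (Cavin3) times the mean of the other mice. All 3 cavin genes have canonical transcripts of 2 exons.

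Ehd2, an ATPase of the caveolar neck, was at the 98.7th percentile per kilobase. It is a minus-strand gene of chromosome 7 (ENSMUSG00000074364, 15680883 to 15701492), and its values of 3455, 3547 and 3356 gave a mean of 3453 ± 95.5 (SD, n = 3). Pacsin2, a membrane-bending F-BAR protein with roles in caveolae and in endocytosis, is a minus-strand gene of chromosome 15 (ENSMUSG00000016664, 83259808 to 83348807). It had normalized counts of 1220, 1258 and 1249, a mean of 1242 ± 19.9 (SD, n = 3). This SD was below the 35.2 that counting independent reads would give, a value that makes no allowance for duplicate removal.

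Nos3 is a plus-strand gene of chromosome 5 (ENSMUSG00000028978, 24569808 to 24589472) and encodes 1202 residues in 26 exons. Its normalized counts were 1641, 1654 and 1818, a mean of 1704 ± 98.7 (SD, n = 3), which is at the 92.6th percentile per kilobase. Unlike the coat genes, Nos3 was highest in mouse 3, at 1.10 times the mean of the other mice.

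The genes of soluble guanylate cyclase were lower, at the 34.5th (Gucy1a1) and 39.1st (Gucy1b1) percentile per kilobase, and were the only ones of the 10 genes with a coefficient of variation over 20% between mice. Both are minus-strand genes of chromosome 3, Gucy1a1 (ENSMUSG00000033910) from 81999734 to 82053096 and Gucy1b1 (ENSMUSG00000028005) from 81939313 to 81981996, 17.7 kb apart. Gucy1a1, which encodes the alpha-1 subunit, had normalized counts of 217, 191 and 430, a mean of 279.3 ± 131.1 (SD, n = 3). Gucy1b1, which encodes the beta-1 subunit that carries the heme and binds nitric oxide, had 190, 212 and 303, a mean of 235.0 ± 59.9 (SD, n = 3). For both subunits mouse 3 lay above the other mice, which themselves differed little and in opposite directions.

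**Figure D1:**
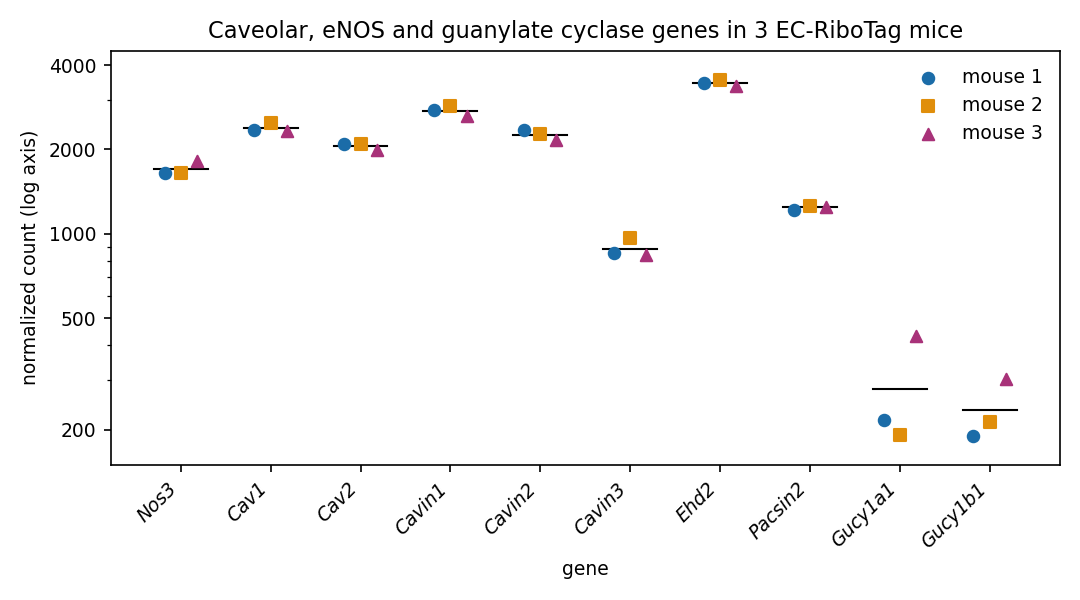
Normalized counts (log axis) of the 10 genes in each of the 3 mice, with a bar at the mean. The caveolar genes and Nos3 lie between 838 and 3547 with their mice close together, whereas Gucy1a1 and Gucy1b1 lie between 190 and 430 with mouse 3 apart.

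As the number of reads depends on transcript length, levels of different genes are set side by side below per kilobase. Per kilobase of canonical transcript, the order of the 10 genes was Cav1 (838.5 ± 29.7 normalized counts per kilobase, SD, n = 3), Cavin1 (787.7 ± 31.6), Ehd2 (655.8 ± 18.1), Cav2 (588.9 ± 17.5), Nos3 (410.4 ± 23.8), Cavin3 (345.7 ± 26.5), Cavin2 (339.0 ± 14.5), Pacsin2 (335.3 ± 5.4), Gucy1b1 (72.6 ± 18.5) and Gucy1a1 (59.6 ± 28.0). Of the 9 neighbouring pairs in this order, 6 were further apart than the larger SD of the pair. Cavin3 and Cavin2, Cavin2 and Pacsin2, and the cyclase subunits were not. Over the 14395 genes that had a known length and averaged 10 or more, the median was 106.5 per kilobase. Cav1 and Cavin1 exceeded the 99th percentile of these genes (686.1 per kilobase), and the cyclase subunits were below their median. In the highest 10% per kilobase lay 5 of the 10 genes, namely Cav1, Cavin1, Ehd2, Cav2 and Nos3, against 10.0% of all genes, a share fixed by the definition.

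The choice of length moved this order. When the length of all annotated exons was used, Ehd2 was the highest with 544.8 ± 15.1 per kilobase, followed by Cavin1 with 516.4 ± 20.7, Cav2 with 479.2 ± 14.3 and Cav1 with 477.6 ± 16.9, and 7 of the 10 genes were in the highest 10%. Pacsin2 fell most, from the 88.0th percentile of genes to the 79.0th, as its annotated exons span 9487 bases and its canonical transcript 3705. The reads were single-end, and duplicates were removed before counting, so that reads starting at the same position are kept only once. The reads of a gene are thereby capped at about the number of bases in its transcripts. Cav1 came to 0.838 and Cavin1 to 0.788 normalized counts per base of canonical transcript, and the other members to between 0.0596 and 0.656. The highest of these values are near that cap. How far it compressed them, their ratios to other genes or their spread between mice was not tested.

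**Figure D2:**
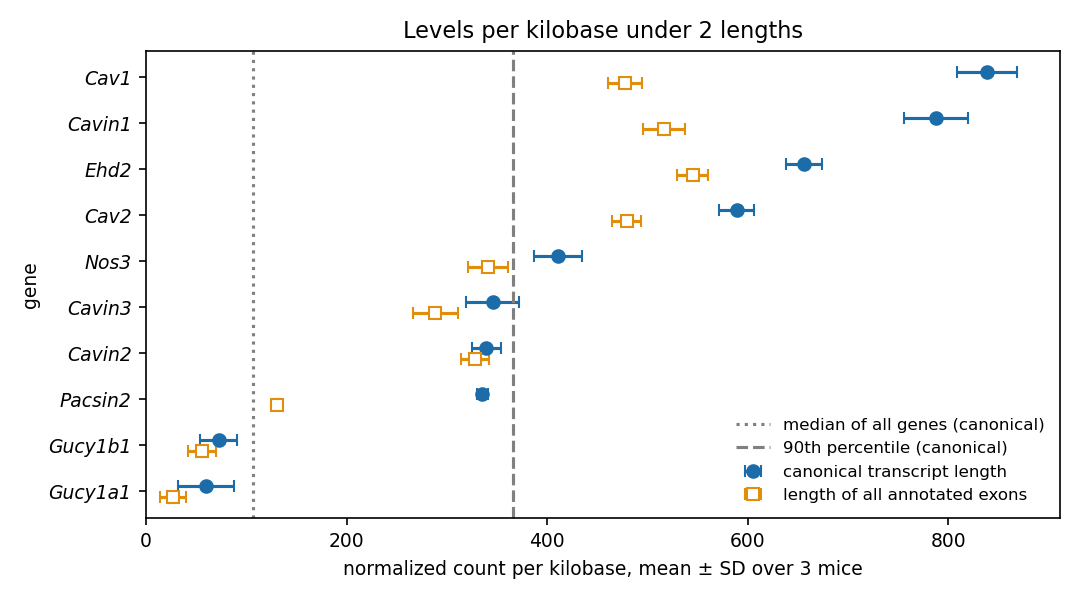
Normalized counts per kilobase (mean ± SD over 3 mice) of the 10 genes by canonical transcript length (filled circles) and by the length of all annotated exons (open squares), with the median and the 90th percentile of all genes by canonical length. Cav1 and Cavin1 lead by canonical length, Ehd2 by exonic length, and the cyclase genes are below the median by both.

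Genes of the same complex or of successive steps were compared by their log2 ratio per kilobase within each mouse, in 11 pairs. How far duplicate removal compressed these ratios was not tested. This holds for ratios with Cav1 or Cavin1, and also for those with Ehd2 (0.656 normalized counts per base), Cav2 (0.589) or Nos3 (0.410). With 3 mice the exact sign-flip permutation test (two-sided) cannot go below p = 0.25, so that no pair could reach 0.05, and the adjusted p of the 10 pairs with the same sign in 3 of 3 mice was 0.275 (Benjamini-Hochberg over the 11 pairs). Cav1 exceeded Cav2 by a log2 ratio of 0.51 ± 0.05 (SD, n = 3 mice), or 1.42-fold, with 0.46, 0.55 and 0.53 in mice 1, 2 and 3. By the length of all exons the ratio was -0.01, so that the order of the caveolins rests on the length used.

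Among the cavins, Cavin1 exceeded Cavin2 by 1.22 ± 0.05 (log2, SD, n = 3) and Cavin3 by 1.19 ± 0.06, and both differences kept their sign by the length of all exons (0.66 and 0.84). Cavin2 and Cavin3 differed by -0.03 ± 0.11, within the spread between mice (exact sign-flip permutation test, two-sided p = 0.75, and 0.75 after adjustment). By the length of all exons their ratio was 0.19. Cav1 and Cavin1 were nearly equal, with 0.09 ± 0.03 by canonical length and -0.11 by the length of all exons. They had the most normalized counts per base of the members, 0.838 and 0.788, where the extent of compression by duplicate removal was not tested. This limit holds for the sums below too. Summed over genes, a measure added after the values were seen, the caveolins Cav1 and Cav2 came to 1427 ± 41.6 normalized counts per kilobase and the 3 cavins to 1472 ± 64.4, a log2 ratio of -0.04 ± 0.02, or -0.24 ± 0.02 by the length of all exons.

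Ehd2 exceeded Pacsin2 by 0.97 ± 0.04 (log2 per kilobase, SD, n = 3), and by 2.06 by the length of all exons. Nos3 was below Cav1, its caveolar inhibitor, with a log2 ratio of -1.03 ± 0.12, which makes Cav1 2.04-fold higher, and of -0.49 by the length of all exons. Against the beta-1 subunit of the enzyme that nitric oxide activates, Nos3 was 5.77-fold higher, with a log2 ratio per kilobase of 2.53 ± 0.27. This ratio was 2.75 in mouse 1, 2.60 in mouse 2 and 2.23 in mouse 3, so mouse 3 was again the one apart. Gucy1a1 was below Gucy1b1 in 3 of 3 mice per kilobase, with log2 ratios of -0.34, -0.68 and -0.03 and a mean of -0.35 ± 0.33, so that the mean was close to the spread between mice. By the length of all exons this difference was larger, at -1.12.

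The muscle members of both families were low. Cav3, the caveolin of striated muscle, had normalized counts of 97, 71 and 74, and Cavin4, the cavin of muscle cells, had 129, 99 and 93. Both were highest in mouse 1. Per kilobase, Cav1 exceeded Cav3 by a log2 ratio of 3.60 ± 0.27 (12.1-fold) and Cavin1 exceeded Cavin4 by 4.28 ± 0.24 (19.4-fold). By the length of all exons these log2 ratios were smaller, at 2.94 and 3.67. By comparison, the 10 cardiomyocyte markers ranged from 78.5 per kilobase for Ttn to 819.2 for Myl2, and 6 of them were in the highest 10% of genes, although Cav3 and Cavin4 reached only 69.7 and 41.0 per kilobase.

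**Figure D3:**
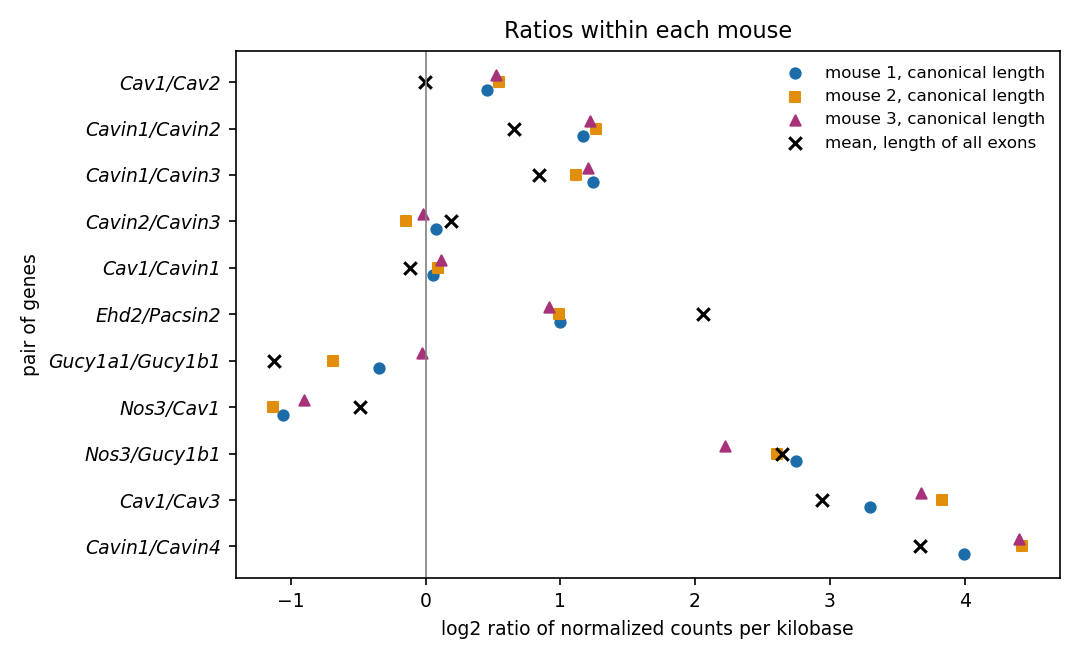
Log2 ratio of normalized counts per kilobase for 11 pairs of genes in each mouse by canonical transcript length (colored symbols) and as the mean by the length of all exons (crosses). The 3 mice lie close together for the coat genes, and the crosses lie on the other side of 0 or near it for Cav1/Cav2, Cav1/Cavin1 and Cavin2/Cavin3.

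Variation between the mice separated the cyclase genes from the caveolar genes and Nos3. The coefficient of variation was 46.9% for Gucy1a1 and 25.5% for Gucy1b1, and between 1.60% (Pacsin2) and 7.66% (Cavin3) for the 8 other genes. A coefficient over 20% was thus found in 2 of the 10 genes, against 8.00% of the 9358 genes that averaged 200 or more, whose median coefficient was 7.37%. Relative to the SD that counting independent reads gives, the SD of Gucy1a1 was 7.90 times and that of Gucy1b1 3.92 times as large. For the 8 other genes it was between 0.56 and 2.39 times. The cyclase genes had the fewest normalized counts per base of the 10 genes. The counting SD makes no allowance for duplicate removal, which lowers the counting error of genes with many reads per base. The multiples of the cyclase genes and of the 8 other genes are thus not on the same footing. How far duplicate removal narrowed the spread of the higher genes was not tested. Mouse 3 alone set both values. Without it, the coefficients were 9.01% for Gucy1a1 and 7.74% for Gucy1b1, and none of the 10 genes exceeded 20%, against 8.71% of the genes that averaged 200 or more in the remaining mice. Without mouse 1 or mouse 2 both genes stayed over 20%.

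**Figure D4:**
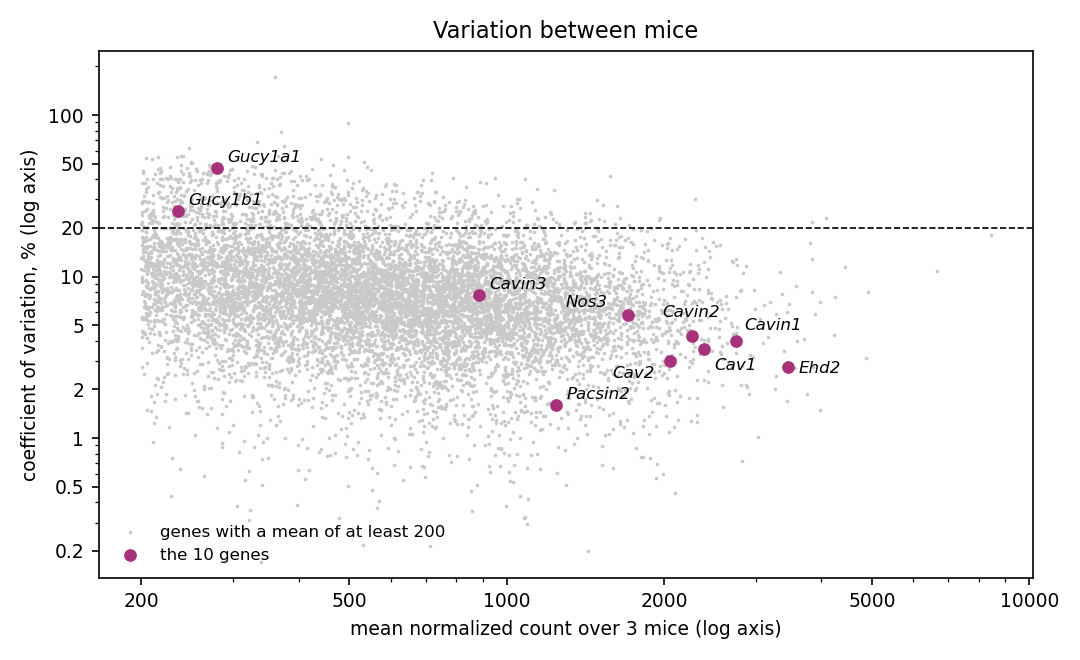
Coefficient of variation between the 3 mice against the mean normalized count (both log axes) for genes averaging 200 or more (grey) and the 10 genes described here, with a dashed line at 20%. Gucy1a1 and Gucy1b1 lie above the line and the 8 other genes between 1.60% and 7.66%.

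In mouse 3, Gucy1a1 was 2.11 times and Gucy1b1 1.51 times the mean of the other mice. Among genes that averaged 200 or more, 0.171% had a fold at least as large as that of Gucy1a1, and 1.38% at least as large as that of Gucy1b1. Of the 13 other guanylate cyclases and effectors of cGMP that were listed, 8 were highest in mouse 3. This compares with 29.7% of all genes averaging 200 or more, although only 7 of the 13 genes averaged that much. The summed normalized count of the 13 genes in mouse 3 was 1.09 times the mean of the other mice. The 2 genes given next were chosen after their values were seen. Prkg1, which encodes the cGMP-dependent protein kinase of smooth muscle, had normalized counts of 46, 50 and 121, and Pde3a, a phosphodiesterase that cGMP inhibits, had 259, 210 and 436. Pde5a, the phosphodiesterase specific for cGMP, had 185, 240 and 247, with mouse 3 close to mouse 2. Npr1, Npr2, Vasp, Pde9a and Irag1 were not highest in mouse 3.

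Markers of smooth muscle moved with the cyclase genes in part. Normalized counts in mice 1, 2 and 3 were 67, 128 and 210 for Acta2 (smooth muscle actin), 31, 118 and 240 for Myh11 (smooth muscle myosin), 103, 206 and 338 for Tagln (transgelin), and 1, 4 and 12 for Cnn1 (calponin). These markers were also higher in mouse 2 than in mouse 1, as was Gucy1b1 (212 against 190), whereas Gucy1a1 was lower (191 against 217). The other 6 markers of the list were mixed. Pdgfrb had 212, 254 and 280, Notch3 145, 216 and 226, and Abcc9 383, 301 and 396, each highest in mouse 3. Rgs5 had 542, 615 and 505, Kcnj8 138, 85 and 119, and Cspg4 134, 295 and 186, none of them highest there. Of all 10 pericyte and smooth muscle markers, 7 were thus highest in mouse 3, against the same 29.7%, although 5 of the 10 markers averaged less than 200. The sum of the list there was 1.26 times the mean of the other mice. The same fold was 0.981 for the sum of the endothelial markers, 1.15 for cardiomyocyte, 1.19 for fibroblast and 1.16 for leukocyte markers. Only 3 of the 10 cardiomyocyte markers were highest in mouse 3, among them Ttn at 1.35 and Ryr2 at 1.29 times. The part of any of these cell types in the values of Gucy1a1 and Gucy1b1 was not tested.

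**Figure D5:**
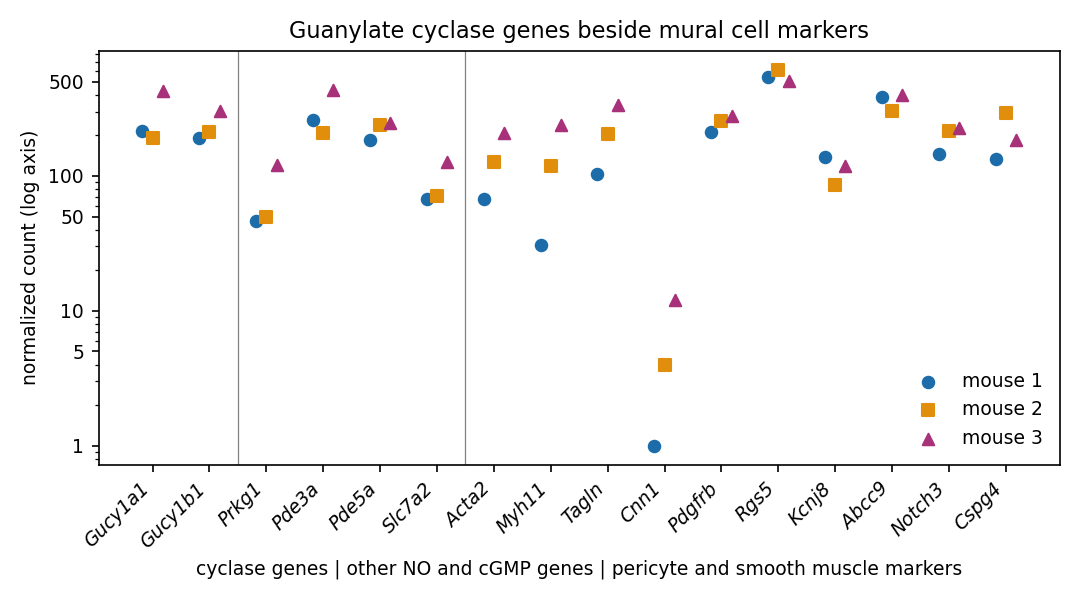
Normalized counts (log axis) in the 3 mice of Gucy1a1 and Gucy1b1 (left), the pathway genes Prkg1, Pde3a, Pde5a and Slc7a2 (middle) and the 10 pericyte and smooth muscle markers (right). The genes in the middle are a selection, each highest in mouse 3, as were 19 of the 49 listed genes of the pathway lists. Acta2, Myh11, Tagln and Cnn1 share the high value of mouse 3, whereas Rgs5 and Kcnj8 do not.

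The 250 bases before the start of the canonical transcript are given for the cyclase subunits, at 2.11 and 1.51 times the other mice in mouse 3, and for Nos3 and Cav1, at 1.10 and 0.965 times. They are read 5' to 3' on the strand of the gene from GRCm39. Capitals mark matches to 5 short motifs, searched on both strands, so that a capital run can be the reverse complement. The TATA box was searched as TATAAA. The GC box, where SP factors bind, was searched as GGGCGG. For the box of the NF-Y factor the letters were CCAAT. The core of ETS sites, used by many endothelial factors, was written CCGGAA. The core of KLF sites was searched as CACCC. For Gucy1b1 the last 16 bases, which another transcript includes in an exon, are left out. The windows are chr3:82053217-82053466 (minus strand) for Gucy1a1, chr3:81982023-81982256 (minus strand) for Gucy1b1, chr6:17305890-17306139 (plus strand) for Cav1 and chr5:24569537-24569786 (plus strand) for Nos3.
Gucy1a1: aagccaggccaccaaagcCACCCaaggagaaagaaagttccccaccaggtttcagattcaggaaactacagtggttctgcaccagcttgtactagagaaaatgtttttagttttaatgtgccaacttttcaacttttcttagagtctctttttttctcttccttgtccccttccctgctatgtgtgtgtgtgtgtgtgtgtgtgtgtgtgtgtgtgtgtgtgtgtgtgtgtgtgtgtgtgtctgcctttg
Gucy1b1: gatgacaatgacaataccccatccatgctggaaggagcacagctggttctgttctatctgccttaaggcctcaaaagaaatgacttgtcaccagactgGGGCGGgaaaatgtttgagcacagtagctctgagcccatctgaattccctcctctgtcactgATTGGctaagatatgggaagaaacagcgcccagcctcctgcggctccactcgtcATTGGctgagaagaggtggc
Cav1: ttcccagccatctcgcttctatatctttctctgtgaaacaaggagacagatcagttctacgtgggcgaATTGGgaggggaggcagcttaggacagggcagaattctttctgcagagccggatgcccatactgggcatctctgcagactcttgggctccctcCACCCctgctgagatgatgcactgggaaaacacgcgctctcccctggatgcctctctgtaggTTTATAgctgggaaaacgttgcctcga
Nos3: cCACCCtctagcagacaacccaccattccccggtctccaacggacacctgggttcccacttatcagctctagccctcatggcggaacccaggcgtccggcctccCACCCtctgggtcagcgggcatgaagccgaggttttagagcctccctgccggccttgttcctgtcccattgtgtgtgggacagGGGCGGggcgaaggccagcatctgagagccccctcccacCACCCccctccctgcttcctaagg

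The cyclase windows shared none of the 5 motifs. Gucy1b1 held a GC box and 2 reversed CCAAT boxes, and Gucy1a1 held a single KLF core and a run of TG repeats close to the start. Cav1 held the reverse complement of the TATA box 27 bases before the start, a CCAAT box, also reversed, and a KLF core, whereas Nos3 held 3 KLF cores and a GC box and no TATA box. Among the 14236 protein-coding genes of the table with such a window, 7.54% held a TATA box, 47.7% a GC box, 35.5% a CCAAT box, 16.6% an ETS core and 56.8% a KLF core. G and C made up 44.8% of the Gucy1a1 window and 51.6% of that of Gucy1b1, 54.0% in Cav1 and 64.8% in Nos3, with a median of 56.4% over all windows. These matches are letters in a window and not tested binding sites.

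The remaining genes of the pathway were described by 5 lists of 53 genes in all, of which the table holds 49. Of these 49, 12 were in the highest 10% of genes per kilobase, and their median was 145.6 per kilobase, above the 106.5 of all genes. Of 9 other genes of the caveolar neck and membrane, 3 were in the highest 10%. They were Plvap, which forms the diaphragms of endothelial caveolae, with 409.2 ± 36.3 normalized counts per kilobase (SD, n = 3), and the EHD family members Ehd4 with 380.4 ± 34.7 and Ehd1 with 372.3 ± 22.7. Ehd2 was above all of them. Pacsin1, a neuronal relative of Pacsin2, was the lowest with normalized counts of 3, 2 and 5, near the smallest values that the table lists.

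Among the other synthases and the regulators of eNOS, 11 of 12 genes were listed and 5 were in the highest 10%. The highest were Hsp90ab1, a chaperone of eNOS, with 734.7 ± 31.7 per kilobase, and Calm3, a calmodulin gene, with 665.0 ± 34.2. Zdhhc21, an acyltransferase of eNOS, was the lowest with 51.4 ± 9.5. Nos1, the neuronal synthase, was not among the listed symbols. Nos2, the inducible synthase, singled out after its values were seen, had normalized counts of 1211, 1087 and 1272, or 283.9 ± 22.5 per kilobase, against 410.4 for Nos3. No exon base of its canonical transcript is shared with another gene on the same strand, and no stretch of the read length of 72 bases has an exact copy elsewhere in the genome. Nos2 is known from activated macrophages, and beside its 283.9 6 leukocyte markers ranged from 10.8 (Adgre1) to 137.7 (C1qa) per kilobase. Cd3e was not listed, and Itgam shares 92.2% of its exon bases with another gene on the same strand (Gm49368), so that its 7.0 is no level to compare. The cell that Nos2 came from was not tested.

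In the metabolism of arginine, tetrahydrobiopterin and the methylated arginines that inhibit eNOS, 14 of 15 genes were listed and 4 were in the highest 10%. Ddah2, which degrades asymmetric dimethylarginine, was the highest with 635.3 ± 53.2 per kilobase, followed by Qdpr, which recycles the pterin cofactor, with 519.1 ± 39.2 and Prmt1, an arginine methyltransferase, with 426.9 ± 28.1. Arg1, an arginase that competes for arginine, was the lowest with normalized counts of 0, 3 and 6, and Arg2 was not listed.

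The other guanylate cyclases and effectors of cGMP contrasted with these lists, as none of the 13 genes listed of 15 was in the highest 10% and their median was 29.5 per kilobase. Npr2 and Npr1, the membrane-bound cyclases that natriuretic peptides activate, had 270.3 ± 31.1 and 258.9 ± 13.2, and Vasp, an actin regulator that the cGMP-dependent kinase phosphorylates, had 263.9 ± 10.8. These 3 genes were each above both subunits of the soluble cyclase. Gucy1a2, the alternative alpha subunit, was the lowest with normalized counts of 4, 0 and 6. Prkg2 and Pde2a were not among the listed symbols. For Pde2a, 92.1% of the bases of the canonical transcript lie in exons of another annotated gene on the same strand (Gm45837), and reads on several genes were not counted, so that no level of Pde2a can be given.

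Genes with the most similar levels were sought among all protein-coding genes by the largest absolute log2 difference per kilobase in any of the 3 mice. Nearest to Nos3 were Fzd4, a receptor of Wnt and Norrin (0.03), Plekho2 (0.03) and Sorbs3 (0.04). Arhgdia (0.01), Cd34, a sialomucin of capillary endothelium (0.02), and Gnai2, an inhibitory G protein subunit (0.03), were nearest to Cav1. Gucy1a1 had less close neighbours, namely Tlcd2 (0.12), Ralgps2 (0.18) and Twist1 (0.24), and Gucy1b1 had Nup160 (0.03) and Rfx2 (0.11). With 3 mice of 1 condition, this likeness is a match in level and mouse order and nothing more.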

How the data were processed

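The unit of the values deposited by the authors is a score: read counts per gene divided by a DESeq2 size factor and rounded to whole numbers. Per the labels and methods, the authors trimmed reads with Trimmomatic 0.39, aligned them to mm39 (GRCm39) with STAR 2.7.11a, removed duplicates with Picard 3.1.1 and multi-mapping, ribosomal and mitochondrial reads, counted with featureCounts 2.0.4 on exons of the correct strand without reads on several genes, and normalized with DESeq2 1.36.0. Rounded normalized values allow no count model, and a single condition gives no contrast.

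Columns were mapped to mice by sample title. Levels are the mean and SD over 3 mice. With n = 3 and no record of separate batches, SDs measure the spread between these samples. Lengths come from GENCODE M39 of GRCm39, which holds 17475 of 17583 identifiers (99.39%) and is newer than the authors' annotation (Ensembl release 109), so that transcript starts can differ from the deposited gene ends. Percentiles use genes that averaged 10 or more, and counts of variable genes those that averaged 200 or more, called where the coefficient of variation passed 20%. The SD from counting uses the estimated worth of 1 read (0.977, 1.06 and 0.961 normalized counts) and covers counting error only. It takes reads as independent and makes no allowance for duplicate removal. Exact copies of read length were searched with BLAST 2.17.0, and none was found for the members, Cav3, Cavin4 or Nos2. Nearest genes used a pseudocount of 0.5. Computations used Python 3.11.15, numpy 2.4.6 and pandas 2.3.3.

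The members, lists and pairs were chosen with earlier results of these data known. Named genes are the 10 members, the 3 highest, the lowest and the unlisted genes of each pathway list, the 3 nearest genes of 4 members, and markers. Of the genes this rule names, 2 are not reported here. Alternatives were rescaling (trimmed means of log ratios, or equal totals), other lengths, filters, thresholds and summaries, and leaving out each mouse.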

Additional observations from a re-analysis of the deposited data

How the results depend on the processing

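Rescaling the libraries by trimmed means or to equal totals moved the levels of the 10 genes by less than 1 SD, and cancels in ratios within a mouse. Without mouse 3 the mean of Gucy1a1 was 204.0 in place of 279.3. Of 70 recomputed percentiles of single genes per kilobase, 16 moved by more than the spread between mice. The median percentile of the 10 genes per kilobase, 90.7, was 97.5 by the length of all annotated exons and 97.7 without division by length. The number of genes in the highest 10% per kilobase, 5, was 8 when genes with low values were kept in the comparison. The number with a coefficient of variation over 20%, 2, lay between 0 and 2 with a mouse left out, 0 without mouse 3. Over all genes this count, 749, was 455 without mouse 1, 3492 when genes averaging 10 or more were included and 1399 at a threshold of 15%. Of 77 recomputed pair ratios, 7 changed sign. By the length of all exons, the log2 ratios were -0.0050 for Cav1 to Cav2, -0.11 for Cav1 to Cavin1 and 0.19 for Cavin2 to Cavin3. Without division by length they were -0.21 for Cav1 to Cavin1, 1.35 for Cavin2 to Cavin3 and 0.18 for Gucy1a1 to Gucy1b1. With a mouse left out, Cavin2 to Cavin3 lay between -0.079 and 0.032. With 2 mice the smallest p of the exact sign-flip test is 0.5. No paired analysis was possible because there is no other condition to pair with, and only genes within a mouse were compared. The depth limits genes with few counts, such as Gucy1a2 and Pacsin1, to a listing.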
